A study of Mus musculus with 6 samples.

Results

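ChREBP, the glucose-responsive transcription factor encoded by Mlxipl, was followed together with its partners and target genes in isolated mouse pancreatic islets. The set held 10 of the 23284 genes in the count files: Mlxipl, its dimer partner Mlx, its relative Mlxip, the alpha-arrestins Txnip and Arrdc4, the pyruvate kinase Pklr, and the fatty acid synthesis genes Fasn, Acaca, Acacb and Scd1. They were chosen by symbol, and with values of the present comparison already known, since Txnip had been seen to lie opposite to Mlxipl. The difference between the genotypes is therefore given for these 10 genes as a description without a p-value.

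The islets came from mice of 12 weeks and were measured by bulk RNA sequencing in 6 libraries. In the 3 knockout libraries (4, 5 and 6) both Neurod1 alleles were floxed and Rip-Cre was present, a Cre recombinase under an insulin promoter. The deletion is therefore aimed at beta cells, and the other islet cells are meant to keep an intact gene. Which cells lost the gene cannot be read from bulk counts. The 3 control libraries (7, 10 and 16) carried the floxed alleles without Cre, so that an effect of Cre and an effect of the deletion cannot be told apart. The strain of both groups is labelled C56BL/J. Whether each library is a separate animal is unstated, and p-values therefore rest on the spread among these libraries, which may be technical.

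ChREBP and its relative MondoA (Mlxip) are basic helix-loop-helix leucine zipper proteins that bind DNA as a pair with Mlx, at carbohydrate response elements made of a pair of E-box-like motifs. Glucose metabolites activate the pair, which then raises genes of glycolysis, of fatty acid synthesis and of the alpha-arrestin family. In beta cells the best known of these targets are Txnip, which binds thioredoxin and restrains glucose uptake, and Pklr. Mlxipl gives a long and a short protein from alternative first exons, which counts per gene do not part, and mRNA levels do not show where in the cell the protein is.

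Libraries held 12206393 to 20412435 counts, and each of the 10 genes had at least 64 counts in every library. Neurod1 was at 28.4, 29.8 and 31.3 CPM (TMM-scaled counts per 1e+06 counts of the library) in knockouts 4, 5 and 6 and at 198, 177 and 141 CPM in controls 7, 10 and 16. The hormone genes Ins2, Gcg, Sst and Ppy were at or above 2361 CPM in every library. Ins1, the other insulin gene, had a mean of 48668 CPM in controls but 4307 CPM in knockouts, and it fell by 3.50 on the log2 scale (SE 0.25, adjusted p = 1.27e-04 by edgeR's quasi-likelihood test). Other cells were present too. Fits with the summed acinar or adipocyte markers as a covariate are given beside all members except Mlxipl and Mlx, and for the lists. The part of the other cell types was not tested. The 13 acinar markers summed to 11403 to 40332 CPM in controls and 4177 to 11886 CPM in knockouts (0 higher, 2 lower), and the 8 endothelial markers to 686 to 693 and 433 to 512 CPM (0 higher, 7 lower). The 10 beta cell markers, which include the insulin genes and share G6pc2 and Slc2a2 with the glucose entry list, summed to 174707 to 192972 CPM in controls and 132416 to 149044 CPM in knockouts (3 higher, 3 lower). Ins1 alone differed by about as much as this sum, and the median log2 fold change of the 10 markers was 0.20. In bulk islets fewer cells of a type and less RNA per cell cannot be told apart.

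Mlxipl was lower in all 3 knockout libraries. It was at 478, 485 and 518 CPM in controls 7, 10 and 16, and at 135, 156 and 151 CPM in knockouts 4, 5 and 6. The lowest control library lay far above the highest knockout library, and the coefficient of variation was 4.32% within controls and 7.39% within knockout. The means were 493 ± 21.3 and 147 ± 10.9 CPM (SD, n = 3 each), 3.36-fold lower in the knockout, with a log2 fold change of -1.75 (SE 0.08). Leaving out any 1 library gave -1.79 to -1.67.

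The partners differed by far less. Mlxip, the relative of ChREBP, was at 116, 128 and 127 CPM in controls 7, 10 and 16, and at 107, 99.1 and 105 CPM in knockouts 4, 5 and 6. All knockout libraries were below all controls, by a log2 fold change of -0.25 (SE 0.07). This change was -0.16 with the summed adipocyte markers and -0.34 with the summed acinar markers as a covariate. Mlx, the obligate partner of both, was at 38.9, 34.8 and 37.8 CPM in controls and at 45.4, 45.9 and 41.3 CPM in knockouts, in the same order. Here all knockout libraries lay above all controls, by 0.25 (SE 0.08). The gene Psmc3ip overlaps Mlx on the opposite strand, and it had only 28 to 42 counts per library.

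Levels of different genes were compared per kb of transcript. In control islets Mlxipl was at 136 ± 5.88 CPM per kb, Mlx at 18.9 ± 1.08 and Mlxip at 17.0 ± 0.972 (SD, n = 3). In knockout islets Mlx was at 22.5 ± 1.29 and Mlxip at 14.2 ± 0.572 CPM per kb, and Mlxipl at 37.2, 43.0 and 41.6 CPM per kb in libraries 4, 5 and 6. The ratio of Mlxipl to Mlxip per kb was 8.05 ± 0.389 in controls and 2.86 ± 0.314 in knockouts, so Mlxipl remained the more abundant of the 2 relatives in each library. Their summed level per kb was 8.11 ± 0.576 times that of Mlx in controls and 2.44 ± 0.212 times in knockouts.

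**Figure D1:**
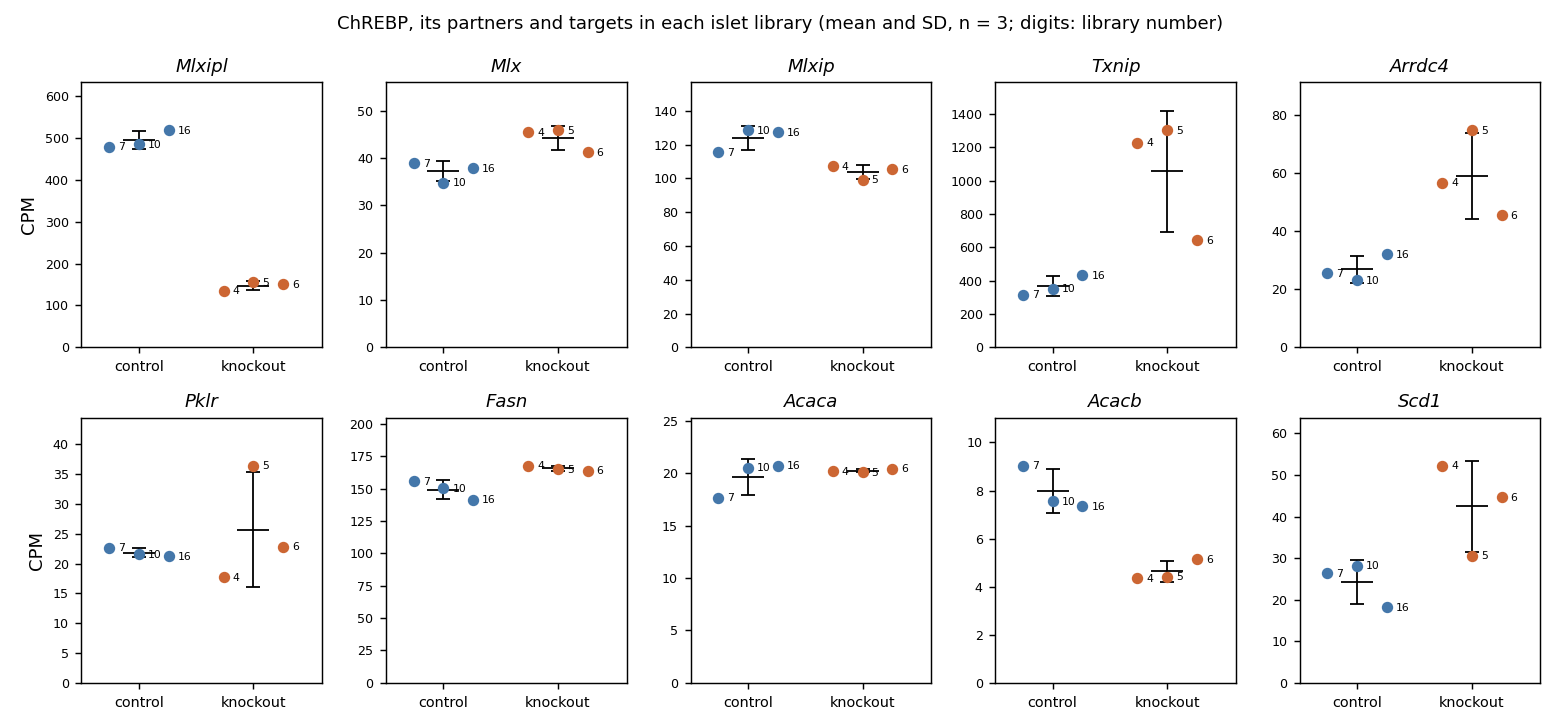
CPM (vertical axes, from 0) of the 10 genes in each of the 3 control and 3 knockout islet libraries; points are libraries, labelled by number, and bars give the mean and SD. Mlxipl, Mlxip and Acacb lie lower in all knockout libraries, Mlx, Txnip, Arrdc4, Fasn and Scd1 lie higher, and Pklr and Acaca overlap.

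Promoter sequences were taken from RefSeq (GRCm38.p6, while the counts were made on mm9), and 9 of the 10 members were matched, with 11 start sites. The 250 bases before a start site are shown 5′ to 3′ for the members whose window held the paired E-box-like letters CACGNG and CNCGNG parted by 5 bases (Txnip and Pklr) or the single E-box CACGTG (Arrdc4), in capitals, because these 3 genes are targets whose levels are set against Mlxipl here. The paired form was chosen after these sequences were read.
Txnip, chr3:96557707-96557956, plus strand: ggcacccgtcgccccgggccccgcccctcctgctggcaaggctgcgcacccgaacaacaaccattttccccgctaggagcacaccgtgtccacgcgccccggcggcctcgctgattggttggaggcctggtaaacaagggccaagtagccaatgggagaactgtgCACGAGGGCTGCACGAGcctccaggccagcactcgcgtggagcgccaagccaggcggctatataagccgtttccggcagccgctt
Arrdc4, chr7:68749239-68749488, minus strand: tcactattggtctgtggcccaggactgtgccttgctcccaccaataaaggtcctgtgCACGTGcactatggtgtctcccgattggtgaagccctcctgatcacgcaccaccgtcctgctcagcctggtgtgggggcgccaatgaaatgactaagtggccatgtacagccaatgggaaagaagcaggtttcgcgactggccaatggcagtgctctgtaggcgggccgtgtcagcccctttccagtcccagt
Pklr, downstream one of its start sites, chr3:89136373-89136622, plus strand: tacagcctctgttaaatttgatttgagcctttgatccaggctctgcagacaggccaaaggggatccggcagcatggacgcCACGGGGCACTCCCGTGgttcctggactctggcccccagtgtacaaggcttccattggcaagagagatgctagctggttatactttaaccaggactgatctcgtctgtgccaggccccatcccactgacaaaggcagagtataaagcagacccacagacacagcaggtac

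The paired letters began 85 bases before the Txnip start and 170 bases before this Pklr start. Both strands of windows from 250 bases before to 50 after the start were searched. The paired letters were present in 0.365% of all 32851 promoters. Counted per gene by any of its start sites, they were in 0.426% of 27025 genes and in 2 of the 9 matched members. As the paired form was chosen after the members' sequences were read, nothing is read from these shares. CACGTG was in 7.15% of promoters, in 8.09% of genes and in 3 members (Mlxipl, Mlx and Arrdc4), and letters matching CACGTG can lie inside the paired form. A pair of CACGTG with the same spacing was in 0 promoters of the table. A pair of CANNTG with that spacing (0.767% of promoters, 0.903% of genes) and CATCTG (17.2% and 19.2%) were in 0 members. CCAAT was in 8 members, in 41.1% of genes and in 37.4% of promoters. A match describes letters and is no measured site.

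Txnip lay opposite to Mlxipl. It was at 316, 352 and 434 CPM in controls 7, 10 and 16, and at 1228, 1303 and 641 CPM in knockouts 4, 5 and 6. All knockout libraries were above all controls, but library 6 was far below the other two knockout libraries, and the coefficient of variation in the knockout was 34.3%. The means were 367 ± 60.2 and 1058 ± 362 CPM (SD, n = 3 each), 2.88-fold higher in the knockout, with a log2 fold change of 1.53 (SE 0.29). It was 1.80 without knockout library 6 and 1.35 without knockout library 5. With the acinar markers as a covariate it was 1.26, and with the adipocyte markers 1.87. The antisense gene Gm15441 that overlaps Txnip had 13 to 23 counts per library. Of the 6 libraries, knockout 6 had the fewest counts (12206393) and the highest share of the gene Rn45s (3.58%). It also had the highest sum of leukocyte markers (319 CPM). Whether these bear on its Txnip level was not tested.

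Arrdc4, an alpha-arrestin induced by glucose like Txnip, had a like pattern at a lower level. It was at 25.5, 23.2 and 32.0 CPM in controls 7, 10 and 16, and at 56.7, 74.8 and 45.6 CPM in knockouts 4, 5 and 6, so that library 6 was again the lowest of the knockouts and library 16 the highest of the controls. The groups did not overlap, and the log2 fold change was 1.14 (SE 0.20), 2.19-fold. This log2 fold change was 1.05 with the acinar and 1.30 with the adipocyte markers as a covariate. Per kb, Txnip was 18.9 ± 1.93 times as abundant as Arrdc4 in controls and 24.5 ± 5.24 times in knockouts (SD, n = 3 each), values that overlapped. Txnip over Mlxipl per kb was 0.847, 0.932 and 1.07 in controls 7, 10 and 16, and 11.7, 10.7 and 5.45 in knockouts 4, 5 and 6.

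Pklr, the liver-type pyruvate kinase of the last step of glycolysis and the classic ChREBP target, did not part the groups. It was at 22.7, 21.6 and 21.3 CPM in controls 7, 10 and 16, and at 17.7, 36.5 and 22.8 CPM in knockouts 4, 5 and 6. The knockout libraries lay on both sides of the controls, and library 5 alone was high. The log2 fold change was 0.23 (SE 0.25), and it was -0.11 without knockout library 5, 0.65 with the summed acinar markers and -0.02 with the summed adipocyte markers as a covariate. Pklr made up 3.84 ± 0.263% of pyruvate kinase transcripts per kb (Pklr plus Pkm2) in controls and 4.11 ± 1.06% in knockouts (SD, n = 3 each). Hcn3 overlaps Pklr on the opposite strand and fell (210 to 549 counts per library, log2 fold change -0.60, SE 0.10, adjusted p = 0.00346 by edgeR's quasi-likelihood test). The sources used here do not say whether counting used strand, so reads of the overlap cannot be told apart.

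The fatty acid synthesis members went 3 ways. Fasn, the synthase itself, was at 156, 150 and 141 CPM in controls 7, 10 and 16, and at 168, 165 and 164 CPM in knockouts 4, 5 and 6. The groups did not overlap, yet the difference was small (log2 fold change 0.15, SE 0.07, and 0.08 with the adipocyte or 0.21 with the acinar markers as a covariate). Acaca, the cytosolic acetyl-CoA carboxylase that makes malonyl-CoA for synthesis, was at 17.7, 20.5 and 20.7 CPM in controls and at 20.2, 20.1 and 20.4 CPM in knockouts, within the range of the controls (0.04, SE 0.10). Its log2 fold change was -0.04 with the acinar and 0.17 with the adipocyte markers as a covariate.

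Acacb, the mitochondrial carboxylase whose malonyl-CoA restrains fatty acid import, was lower in the knockout. It was at 9.04, 7.55 and 7.34 CPM in controls 7, 10 and 16, and at 4.36, 4.42 and 5.14 CPM in knockouts 4, 5 and 6, with no overlap (-0.78, SE 0.17). Its log2 fold change was -0.62 with the acinar and -0.98 with the adipocyte markers as a covariate. The ratio of Acaca to Acacb per kb was 2.31 ± 0.437 in controls and 4.05 ± 0.334 in knockouts (SD, n = 3 each). Scd1, a stearoyl-CoA desaturase, was at 26.4, 28.2 and 18.2 CPM in controls and at 52.3, 30.6 and 44.6 CPM in knockouts. The groups did not overlap, although knockout library 5 was close to control library 10, and the log2 fold change was 0.80 (SE 0.24). This change was 0.82 with the acinar and 0.68 with the adipocyte markers as a covariate. Scd1 belongs to a family of near copies, and the sources used here do not say how shared reads were counted.

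Fat cells also make Fasn, Acaca and Scd1, so their markers were read beside these genes. The 10 adipocyte markers summed to 22.2 to 38.6 CPM in controls and 19.0 to 23.1 CPM in knockouts (3 tested, 0 higher, 1 lower). The defining ones, Adipoq, Plin1, Cfd, Lep, Retn, Cidec and Car3, had no more than 5 counts in any library. Nearly all of the sum came from Fabp4 (means of 11.9 CPM in controls and 8.06 CPM in knockouts) and Lipe (16.5 and 11.5 CPM). The adipocyte covariate therefore mostly follows these genes, and whether they come from fat cells was not tested.

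**Figure D2:**
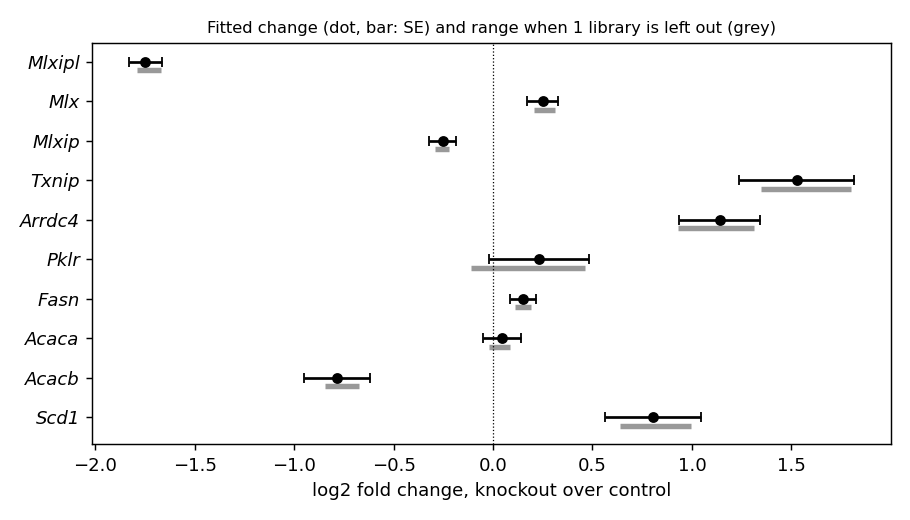
Log2 fold change of each gene, knockout over control (horizontal axis), with its SE as a bar around the dot; the grey line gives the range when each of the 6 libraries is left out in turn. Mlxipl stands at -1.75 and Txnip at 1.53, and the ranges of Pklr and Acaca cross 0.

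Over all 14770 genes tested, 11.8% were higher and 12.6% lower at an adjusted p under 0.05 by edgeR's quasi-likelihood test. The numbers of the 10 members past that threshold were 3 higher and 3 lower, which is a count and no test of the members. The groups did not overlap for 8 of the 10 members, against 42.0% of all genes. As this comparison chose the members, nothing is read from these shares. The count higher was 1 without control library 7 or 10. Their median log2 fold change was 0.19, against -0.01 over all genes. When acinar marker level entered the fit as a covariate, the counts were 0 higher and 1 lower, and with adipocyte marker level 0 higher. The log2 fold changes in these and the other alternative fits that kept all 6 libraries ran from -1.78 to -1.71 for Mlxipl and from 1.26 to 1.87 for Txnip. In the authors' deposited table all 10 log2 fold changes had the same sign, -1.73 for Mlxipl and 1.54 for Txnip.

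The order of the members by level per kb also differed between genotypes. In control libraries Mlxipl (136 CPM per kb) and Txnip (130 ± 21.3) led and overlapped each other. Mlx (18.9), Mlxip (17.0) and Fasn (14.8 ± 0.721) followed, then Pklr (7.84 ± 0.261) and Arrdc4 (6.90 ± 1.17), which overlapped, then Scd1 (5.02 ± 1.10), Acaca (2.06 ± 0.179) and Acacb (0.908 ± 0.105). In knockout libraries Txnip led alone (374 ± 128), followed by Mlxipl, Mlx, Fasn (16.5 ± 0.204), Arrdc4 (15.1 ± 3.79) and Mlxip. Fasn overlapped Arrdc4 there, and Arrdc4 overlapped Mlxip. Pklr (9.21 ± 3.47) and Scd1 (8.79 ± 2.27) overlapped too, and Acaca (2.13 ± 0.0163) and Acacb (0.528 ± 0.0494) were again the lowest. The other neighbours in either order did not overlap.

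**Figure D3:**
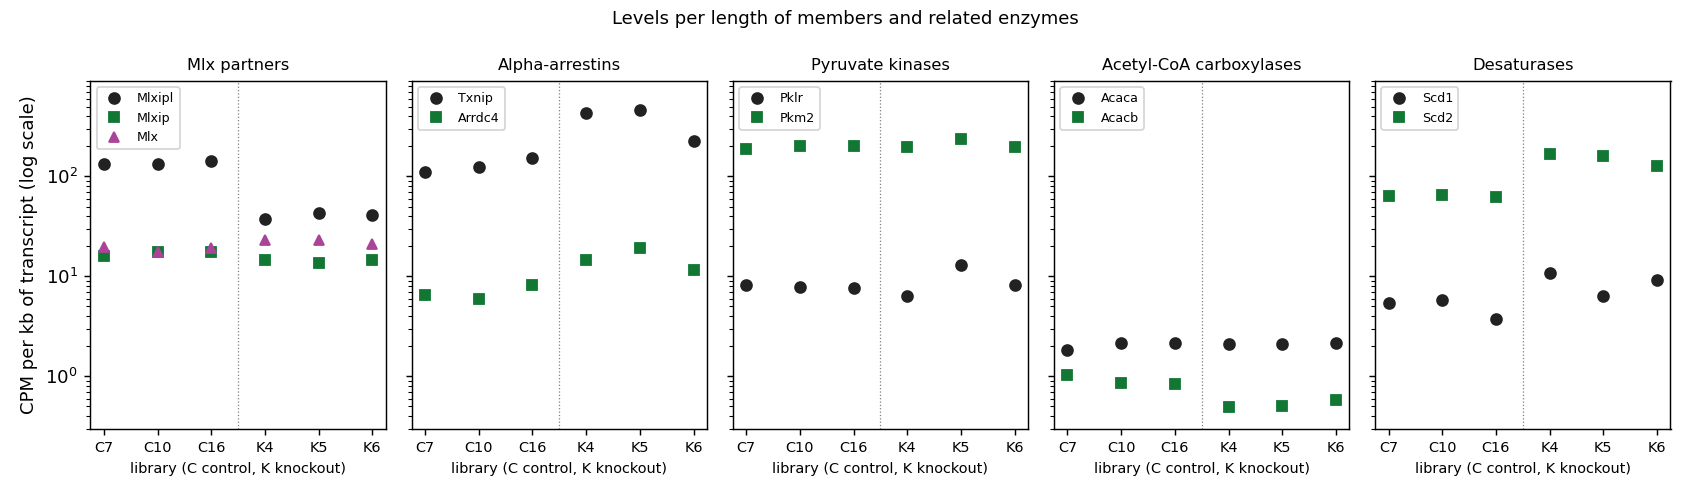
CPM per kb of transcript (log axis) in each library (C control, K knockout) for the Mlx partners, the alpha-arrestins, and the pyruvate kinase, acetyl-CoA carboxylase and desaturase pairs. Mlxipl lies nearer to Mlx and Mlxip in the knockout libraries, while Pkm2 and Scd2 stand above Pklr and Scd1 in all 6.

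The comparison also asked which other genes of this pathway differ between the genotypes. Over 8 lists of related genes, 100 of 110 genes had enough counts to be tested, of which 23 rose and 13 fell by the same test, against 11.8% and 12.6% of all genes. Without any 1 library 16 to 19 rose and 9 to 14 fell, and with acinar or adipocyte markers as a covariate 10 or 9 rose and 7 or 8 fell. The lists were chosen with earlier results of these data known. Nothing is therefore read from the shares that rose or fell, and the adjusted p-values of list genes below are descriptive.

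Among 17 further genes known as ChREBP targets, 14 were tested, of which 3 rose, 2 fell and 9 did not pass (median log2 fold change -0.12). Klf10, a glucose-induced zinc finger repressor, was at 24.4, 22.7 and 23.8 CPM in controls 7, 10 and 16, and at 54.0, 53.3 and 36.7 CPM in knockouts 4, 5 and 6. Library 6 was again the lowest of the knockouts, as with Txnip and Arrdc4. That library was also the lowest knockout for Ins1, Gcg and Scd2, which are outside this list, and the highest for Rgs16. The log2 fold change of Klf10 was 1.02 (SE 0.14, adjusted p = 0.00207). Rgs16, a brake on G protein signalling, rose by 0.64 (SE 0.17). Gpam, the first enzyme of glycerolipid synthesis, fell by 0.36 (SE 0.10). Rgs16 and Gpam missed the threshold without 4 of the 6 single libraries, while Klf10 passed without any 1 library. Gpam also missed it with DESeq2 and with no filter on low counts. Over the alternatives the log2 fold change ran from 0.36 to 0.86 for Rgs16 and from -0.50 to -0.19 for Gpam. Leaving out knockout 5 left 1 rise and 1 fall, and leaving out knockout 6 left 1 fall. Leaving out knockout 4, control 7 or control 10 left 0 falls. When acinar marker level entered the fit as a covariate, 0 of the list rose or fell, while the log2 fold change of Klf10 was between 0.94 and 1.20 in every alternative.

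Genes that make and modify fatty acids formed the longest list. Of 25, 23 were tested, of which 8 rose, 3 fell and 12 did not pass (median 0.08). Scd2, the main desaturase here, was at 344, 358 and 343 CPM in controls 7, 10 and 16, and at 905, 870 and 690 CPM in knockouts 4, 5 and 6 (1.24, SE 0.11, adjusted p = 1.43e-04). Me1, the malic enzyme that supplies NADPH, rose from 20.1 ± 1.38 to 44.6 ± 0.765 CPM (1.15, SE 0.08, adjusted p = 4.29e-05). Acss2, which makes acetyl-CoA from acetate, rose from 38.5 ± 5.11 to 73.0 ± 0.441 CPM (SD, n = 3 each, 0.92, SE 0.10). Elovl4, an elongase of very long chains, fell 4.23-fold from a low level (5.73 ± 0.505 to 1.35 ± 0.0596 CPM, -2.08, SE 0.21). These 4 genes passed the test in each of the 15 other fits. Scd1 made up 7.25 ± 1.39% of the Scd1 and Scd2 transcripts per kb in controls and 5.58 ± 1.56% in knockouts, which overlapped. Leaving out knockout 4, knockout 5, control 7 or control 10 left 5 rises, against 4 with the acinar and 3 with adipocyte markers as a covariate.

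The sterol element factors and their Insig partners were higher in the knockout. Of 9 sterol and lipogenic factors, 4 rose, 1 fell and 4 did not pass (median 0.15). Srebf1, the sterol element factor that drives fatty acid genes, rose from 137 ± 2.67 to 184 ± 21.0 CPM (0.43, SE 0.09), and Srebf2, its cholesterol counterpart, from 154 ± 2.03 to 196 ± 6.89 CPM (0.35, SE 0.06). Insig1, which holds these factors in the endoplasmic reticulum and is itself their target, rose from 70.6 ± 11.8 to 130 ± 18.1 CPM (SD, n = 3 each, 0.89, SE 0.14), and Insig2 rose by 0.41 (SE 0.07). Nr1h3, the liver X receptor alpha, was the one that fell (-0.91, SE 0.20), and it was named after its value was seen. Srebf1 and Srebf2 missed the threshold with either marker covariate, where their log2 fold changes were 0.48 and 0.33 with the acinar and 0.41 and 0.35 with the adipocyte markers. Insig2 missed it with the adipocyte markers (0.34), while all 4 rises passed without any 1 library. The log2 fold change of Insig1 was 0.49 with the acinar markers as a covariate. Nr1h3 missed the threshold with either covariate, while its log2 fold change was as large (-0.95 with the acinar markers). Without knockout library 6, 2 factors fell.

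Genes that control acetyl-CoA carboxylase and use of malonyl-CoA split. Of 15, 13 were tested, of which 2 rose, 3 fell and 8 did not pass (median -0.06). Prkag2, a nucleotide-sensing subunit of AMP-activated kinase, which switches the carboxylases off, fell from 53.7 ± 3.29 to 28.7 ± 1.52 CPM (-0.90, SE 0.08, adjusted p = 1.23e-04). Prkaa1, a catalytic subunit of that kinase, fell from 139 ± 10.1 to 96.6 ± 2.48 CPM (SD, n = 3 each, -0.53, SE 0.07). Cpt1c, a brain-type relative of the carnitine transferase that malonyl-CoA blocks, fell by 0.79 (SE 0.09). Hlcs, the ligase that puts biotin on the carboxylases, rose by 0.54 (SE 0.09). These 4 passed in each of the other fits. Prkab1, a scaffold subunit of the kinase, was the other rise (38.1 ± 1.06 to 53.4 ± 5.43 CPM, 0.49, SE 0.08), which missed the threshold with adipocyte markers as a covariate (0.44). The other tested subunits Prkaa2 (0.06), Prkab2 (-0.13) and Prkag1 (0.02) did not pass. Prkab1 and these 3 were named after their values were seen.

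In the thioredoxin system that Txnip binds, Txn1 rose from 44.6 ± 2.11 to 57.2 ± 4.20 CPM (0.36, SE 0.08) and Txn2, the mitochondrial thioredoxin, from 48.4 ± 2.05 to 62.6 ± 3.21 CPM (SD, n = 3 each, 0.37, SE 0.07). They were the 2 rises among 8 tested of 10 alpha-arrestin and thioredoxin genes, of which 0 fell (median -0.08). Neither passed with acinar markers as a covariate, and Txn1 missed with the adipocyte one. The other alpha-arrestins Arrdc1 (-0.23), Arrdc2 (-0.30) and Arrdc3 (0.26) did not pass, and they were named after their values were seen. Without knockout library 6, 1 gene of the list fell, and without control library 16, 3 rose.

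Of 15 genes of glucose entry, phosphorylation and pyruvate kinase, 14 were tested, of which 3 rose, 2 fell and 9 did not pass (median -0.07). G6pc2, which returns glucose 6-phosphate to glucose in beta cells, was at 4492, 4693 and 5232 CPM in controls 7, 10 and 16, and at 2351, 2158 and 2522 CPM in knockouts 4, 5 and 6 (-1.04, SE 0.10, adjusted p = 2.70e-04), and this call held in each of the other fits. G6pc3, its widely expressed relative, rose by 0.42 (SE 0.09) and Pfkfb2, which sets fructose 2,6-bisphosphate, by 0.41 (SE 0.10), while the glucose transporter Slc2a3 fell by 0.59 (SE 0.14) from 13.3 to 8.86 CPM. Slc2a2, the main glucose transporter of mouse beta cells, was the remaining rise (722 ± 65.6 to 923 ± 61.3 CPM, SD, n = 3 each, 0.35, SE 0.10), and it was named after its value was seen. It missed the threshold without any 1 library except knockout 4, and with adipocyte markers as a covariate (0.19). Slc2a3 missed the threshold without control 10, and Pfkfb2 did so without knockout 6 as well as without control 16. G6pc3, Pfkfb2 and Slc2a3 each missed it with 1 or both marker covariates, where the log2 fold change of G6pc3 was as low as 0.19 and that of Pfkfb2 as low as 0.20. Pkm2, the pyruvate kinase of most tissues (0.10), did not pass, and it was named after its value was seen. Leaving out knockout 6 or control 16 left 1 rise, and 4 genes fell when control 7 was left out, 1 when control 10 was.

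In the wider network of Max and Mlx, 1 of 10 genes rose, 1 fell and 8 did not pass (median -0.12). Mxd1, a repressor that pairs with Max or Mlx, fell from 32.0 ± 1.08 to 24.4 ± 2.34 CPM (SD, n = 3 each, -0.39, SE 0.09), and Mxi1, a repressor partner of Max, rose by 0.34 (SE 0.10). The call of Mxi1 was lost without any 1 library except knockout library 4, and with upper-quartile scaling, limma-voom or edgeR without robust estimation, and both calls were lost with either marker covariate, with log2 fold changes of -0.51 and -0.34 for Mxd1 and 0.39 and 0.36 for Mxi1. Of 9 other factors known at the members' promoters, 0 rose and Usf2, an E-box factor of lipogenic genes, fell (-0.36, SE 0.08, lost with either marker covariate). The median of that list was -0.08.

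**Figure D4:**
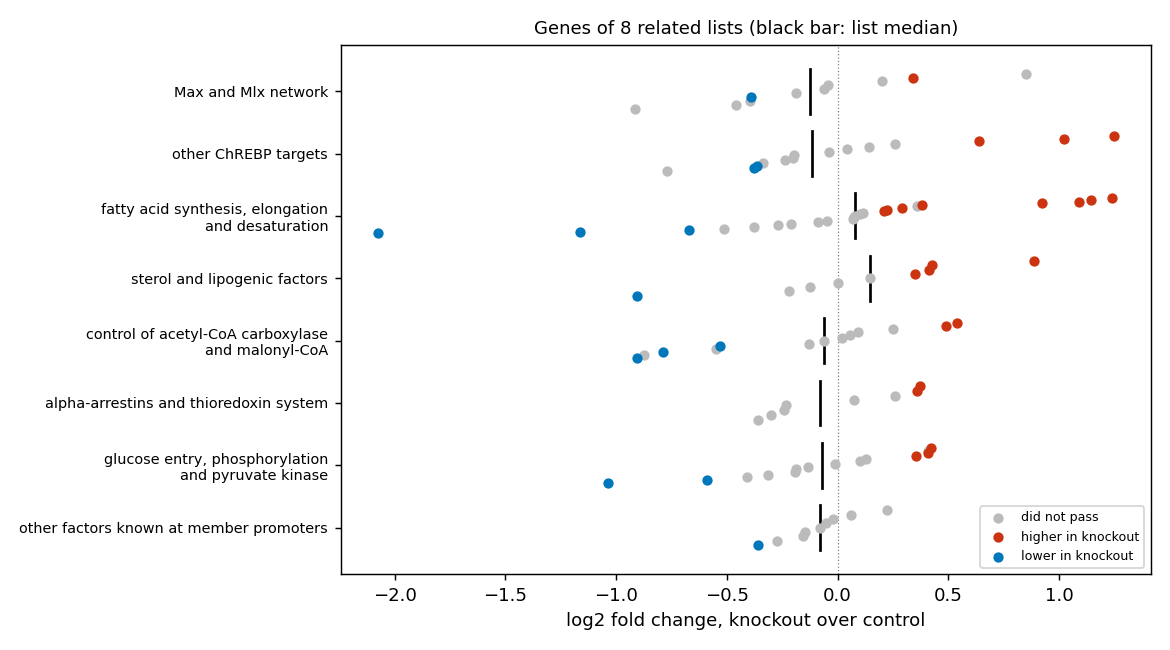
Log2 fold change, knockout over control (horizontal axis), of each tested gene in 8 related lists; red and blue mark genes that passed the test as higher or lower, grey those that did not, and black bars give list medians. The fatty acid list reaches from -2.08 (Elovl4) to 1.24 (Scd2), and all list medians lie between -0.12 and 0.15.

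The genes most like Mlxipl over the 6 libraries were found by the root mean square difference of log2 CPM centred on each gene's mean, over 7517 other genes with a mean of at least 20 CPM. They were Whrn (0.06 log2 units, log2 fold change -1.73), the incretin receptor Gipr (0.07, -1.81), Lrrc10b (0.12, -1.54), Rph3al (0.13, -1.80) and Nt5dc2 (0.13, -1.61). For Txnip they were Tnfrsf21 (0.19 log2 units, log2 fold change 1.45), the fumarase gene Fh1 (0.20, 1.46), Ctnnal1 (0.24, 1.77), B630019K06Rik (0.24, 1.18) and the adenosine receptor Adora3 (0.26, 1.61). By Pearson correlation, 2 of the 5 stayed for Mlxipl (Whrn and Lrrc10b) and 0 for Txnip.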

How the data were processed

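For 6 libraries the authors deposited raw counts by gene symbol. The authors' deposited table of their own comparison holds size-factor scaled means (signal), the fold change as a ratio and as log2, and p-values. The tools named per the submitters' processing notes were TopHat2 2.1.0, Cufflinks 2.0.2, bcl2fastq 1.8.4 and DESeq, and the build mm9. Read counter, annotation and strand setting were not given in the sources used here.

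Libraries were grouped by their titles. In R 4.3.3 with edgeR 4.0.16, filterByExpr (minimum count 10, minimum total 15) kept 14770 of 23284 genes. TMM factors ran from 0.988 to 1.021. The robust quasi-likelihood test was fitted over all genes, and p-values were adjusted by Benjamini and Hochberg's method, with calls below 0.05. Adjusted p-values in the text are from this fit. SE is the log2 fold change divided by the root of F. Log2 CPM used a prior count of 2. The planned coding lengths were not used; lengths are those of the GENCODE vM21 transcript with the longest coding sequence. The test was also run on simulated counts in which far fewer genes differed than are called here, so that run checks only the code. Chi-square per degree of freedom between replicates was 15.9 to 41.5, above sampling noise.

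The members and the 8 lists were chosen with earlier results of these data known. Named genes were the members, up to 4 called genes of each list by smallest p, and the 5 most like Mlxipl and Txnip; some genes that this rule names are not reported here. Alternatives were other scalings, no filter, DESeq2 1.42.0, limma-voom (limma 3.58.1), no robust estimation, marker covariates and leaving out each library.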

Additional observations from a re-analysis of the deposited data

How the results depend on the processing

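No paired analysis was possible because the groups share no replicate number. The direction of 8 members was the same in all 15 alternatives, and that of Pklr and Acaca in 13. Over all genes 1736 were higher and 1864 lower, and leaving out 1 library gave 1153 to 1590 higher and 1225 to 1433 lower, the lowest without control library 10. With acinar markers as a covariate 921 were higher and 783 lower, and with adipocyte markers 735 and 932. The counts of members past the threshold, which describe genes chosen on this comparison and test nothing, were 3 higher and 3 lower. Leaving out 1 library gave 1 to 3 higher and 2 to 3 lower, the acinar covariate 0 higher and 1 lower, and the adipocyte covariate 0 higher. Of the genes on the 8 lists, leaving out 1 library gave 16 to 19 higher and 9 to 14 lower, the acinar covariate 10 and 7, and the adipocyte covariate 9 and 8. The covariate fits spend a degree of freedom of 6 libraries. Both marker sums were mostly lower in knockouts, so covariate and genotype are largely confounded. The acinar sums crossed only at control 16 (11403 CPM) and knockout 5 (11886 CPM). The adipocyte sums crossed only at control 7 (22.2 CPM) and knockout 4 (23.1 CPM). The cause of the lost calls was not tested. No alternative fit moved the median log2 fold change of all genes beyond -0.04 (upper-quartile scaling) to 0.03 (no filter on low counts).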

Other observations

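Beyond the members, calls were counted over all tested genes by the letters in their promoters. Of 10444 tested genes with a promoter in the RefSeq table, 12% were higher and 12.7% lower in the knockout. Of the 87 with the letters CACGNG and CNCGNG parted by 5 bases, 11 were higher (12.6%) and 12 lower (13.8%), and of the 1194 with CACGTG, 13.1% were higher and 13.6% lower. Of the 1481 with CATCTG, 11.1% were higher and 15.5% lower. These shares are descriptions without a test, and promoter windows of 300 bases leave out more distant elements.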
